A study of Mus musculus with 24 samples.

Results

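The molecular chaperones of mouse tibialis anterior muscle, a fast muscle of the lower hindlimb, were examined in Vps39+/- and wild-type (WT) mice. They comprised 77 genes, taken from the 19572 probe sets that carried a single gene symbol in the annotation used. Every gene there whose symbol begins with Hsp or Dnaj was taken, together with Bag1 to Bag6. Each was measured by 1 probe set. Expression was measured on Clariom S mouse arrays in 24 muscles, 6 for each genotype in each sex, all of the C57BL/6J strain. The Vps39 protein is part of HOPS, a tether through which late endosomes and autophagosomes fuse with lysosomes. The Vps39+/- mice carried, in every cell, 1 allele disrupted by a neomycin-EGFP cassette, and loss of both copies is lethal before birth. Both genotypes had free access to normal chow, and no treatment is given in the labels. The mice were 4 to 5 months old, with no age stated separately for the arrays. All values are log2 values, so that a difference of 1 is a doubling.

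Chaperones keep proteins folded. Hsp70 proteins bind exposed hydrophobic stretches and release them in an ATP cycle, J proteins (Dnaja, Dnajb and Dnajc) deliver clients and start ATP hydrolysis, and the Bag and Hsp110 proteins exchange the nucleotide and end the cycle. Hsp90 proteins act later on partly folded clients, and small heat shock proteins hold damaged proteins without using ATP. In muscle they guard the sarcomere, and the small heat shock proteins Hspb6 and Hspb7 are abundant in striated muscle. The set held 10 Hsp70 genes, 3 Hsp110 genes, 2 Hsp90 genes, 7 small heat shock genes, the 2 mitochondrial chaperonin genes Hspd1 and Hspe1, 3 Dnaja, 12 Dnajb and 28 Dnajc genes, 6 Bag genes and 4 other genes whose symbols begin with Hsp. One of these 4, Hspg2, encodes the basement membrane proteoglycan perlecan and is no chaperone. The set is not complete: Hspa8 and Hsp90ab1, the constitutive cytosolic Hsp70 and Hsp90, and Dnaja1 had no probe set with a single symbol. These and the heat shock factor Hsf1 were not analysed here. Hspa1a and Hspa1b encode nearly identical proteins, and how far their probes tell them apart is uncertain.

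Stress induces chaperone genes through short promoter motifs, and matches to these are shown for members whose values are given later. A match is one of sequence only, and neither binding nor induction was measured. RefSeq promoter windows of GRCm38.p6, from 250 bases before to 50 bases after a gene's start, were matched for 64 of the 77 genes. The heat shock factors bind alternating repeats, searched on both strands as the short form TTCNNGAA or GAANNTTC and as the long form TTCNNGAANNTTC or GAANNTTCNNGAA, which contains the short form. The ER stress response element, read by the unfolded protein response, was searched as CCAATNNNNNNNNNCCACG and its reverse complement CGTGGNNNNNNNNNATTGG. The long heat shock motif was present in 4 of 64 members (6.25%), namely Hspd1, Hspe1, Dnajb6 and Hsph1, and in 0.662% of all 27025 genes with a window. Hspd1 and Hspe1 share a single region between their divergent starts. The short form was present in 16 members (25%) and in 17% of all genes. The ER motif was found in Hspa5, Hsp90b1 and Dnajc3, 4.69% of members, against 0.137% of all genes, and Hsp90b1 held 2 matches. The stretches below run 5′ to 3′ on the gene's strand and lie before its start, with the matches in capitals.
Hspa5 (ER motif, chr2:34772005-34772063, plus strand): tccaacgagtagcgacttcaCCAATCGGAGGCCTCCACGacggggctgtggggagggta
Hsp90b1 (ER motif, chr10:86705513-86705676, minus strand): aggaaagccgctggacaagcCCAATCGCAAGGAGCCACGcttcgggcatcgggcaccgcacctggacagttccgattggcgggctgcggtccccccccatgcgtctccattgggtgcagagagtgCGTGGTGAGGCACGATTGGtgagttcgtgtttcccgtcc
Dnajb6 (long heat shock motif, chr5:29735832-29735884, plus strand): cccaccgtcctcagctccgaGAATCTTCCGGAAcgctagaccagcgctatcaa
Dnajc27 (short heat shock motif, chr12:4082341-4082388, plus strand): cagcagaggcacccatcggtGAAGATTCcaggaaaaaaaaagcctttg
Hspa1a (short heat shock motif, chr17:34972233-34972280, minus strand): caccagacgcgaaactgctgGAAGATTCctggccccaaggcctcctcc

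Across the series, the sex labels fitted the Y-linked gene Eif2s3y, which was at least 7.71 in every male and at most 4.04 in every female. The Vps39 probe set did not check the genotype labels, since Vps39+/- minus WT was 0.34 ± 0.17 SE (limma adjusted p = 0.709), and the place of its probes relative to the disrupted exon was not examined. Myofibre genes (Ckm, Acta1 and others) averaged between 13.14 and 13.30 in every muscle. Genes typical of liver (22 of the 26 listed were measured, led by Alb and Apoa1) were high in 4 muscles. WT female 2 (mean 11.5) and WT female 6 (10.4) led, followed by Vps39+/- male 3 (9.97) and Vps39+/- male 2 (9.39), against 4.64 to 8.28 in the other 20. By group the lowest, median and highest liver mean were 4.97, 7.06 and 11.5 among WT females and 4.83, 6.88 and 7.51 among Vps39+/- females, and in the male groups 4.64, 5.04 and 7.46 (WT) and 4.78, 5.29 and 9.97 (Vps39+/-). Gene counts by p, and those above or below 0, were therefore computed again without these 4 arrays. So were the differences of the chaperones of smallest p and the Hspa1b correlations. Unless stated, the other results below use all 24 arrays, among them overlaps of groups, signs shared between comparisons and single genes outside the chaperone set. Replicates are separate mice, and in whole muscle fewer cells of a type and less RNA per cell cannot be told apart.

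Vps39 heterozygosity changed no chaperone gene past the threshold over both sexes. With 12 Vps39+/- against 12 WT mice, 0 of 77 genes had a Benjamini-Hochberg adjusted p under 0.05 in limma, as did 0% of all probe sets tested. At an unadjusted p under 0.05 there were 4 of 77 (5.19%), below the 7.34% of all probe sets, with 1 higher (background 4.72%) and 3 lower (background 2.62%). The median difference of the 77 genes was -0.01 and that of all probe sets 0.01. The 4 genes were the J proteins Dnajb8 and Dnajb9, the Hsp70 co-chaperone Bag4 and the ER Hsp90 Hsp90b1.

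Dnajb8, a J protein best known from testis, read 5.12 ± 0.18 (SD, n = 12) in WT and 5.35 ± 0.19 in Vps39+/- muscle. Its mean lay just above 5, the value below which probe sets were treated as dim. The difference was 0.24 ± 0.08 SE (limma adjusted p = 0.508), and it was 0.24 in females and 0.23 in males. Dnajb9, also called ERdj4, which helps clear misfolded proteins from the ER, was 8.64 ± 0.13 in WT and 8.49 ± 0.11 in Vps39+/- mice (difference -0.15 ± 0.05, adjusted p = 0.563). Its difference was -0.15 in both sexes, with 11 of 12 Vps39+/- mice below the WT mean. Of the 14 genes whose proteins act in or at the ER membrane, 13 had values below 0 for Vps39+/- minus WT, among them Dnajc3 at -0.12 and Hspa5 at -0.09, while 53.2% of all probe sets lay above 0. None of the 14 passed the adjusted threshold, and without the 4 liver-rich arrays the count below 0 was 11. Of the 10 mitochondrial members measured, 8 lay above 0, led by Dnaja3 at 0.11, and again none was called.

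Bag4 in females had the smallest p of any chaperone in the genotype comparisons. In females 0 of 77 genes were called, as were 0% of all probe sets, and 9 of 77 (11.7%) reached an unadjusted p under 0.05 against 8.32% of all probe sets. Of the 9, 5 were higher (background 5.36%) and 4 lower (background 2.96%). The split was 2 higher and 7 lower under cyclic loess, and 2 higher and 3 lower with arrays shifted to the same median. Bag4, also known as silencer of death domains, is a BAG domain protein that binds Hsp70 and restrains signalling from a tumour necrosis factor receptor. It lies at chr8:25764538-25785209 (GRCm38.p6). Its lowest, median and highest values were 5.55, 5.73 and 5.87 in WT females and 4.75, 5.24 and 5.62 in Vps39+/- females. These lie near 5, the limit for dim probe sets, and Vps39+/- female 1 (4.95) and Vps39+/- female 6 (4.75) were below it. Every Vps39+/- female was below the WT female mean, and 1 Vps39+/- female lay above the lowest WT female. The difference was -0.52 ± 0.13 SE, a fold of 0.695 (95% interval -0.78 to -0.27 on the log2 scale, limma adjusted p = 0.357). Without the 4 liver-rich arrays it was -0.56, and over 37 alternatives it lay between -0.61 and -0.44. In males Bag4 ranged from 5.07 to 5.73 in WT and from 5.12 to 5.59 in Vps39+/- mice, overlapping throughout, with a difference of 0.05 ± 0.13. The difference between the sexes' genotype effects was 0.58 ± 0.18 (interaction, limma adjusted p = 0.632). The other 5 Bag genes differed by -0.06 to 0.23 in females.

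**Figure D1:**
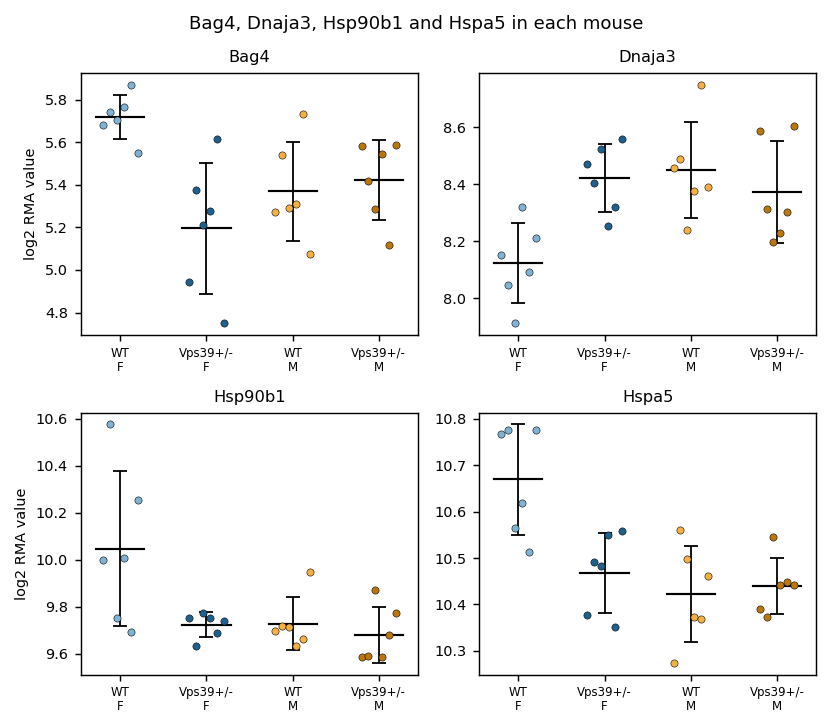
Log2 RMA values of Bag4, Dnaja3, Hsp90b1 and Hspa5 (vertical axis, log2 units) in each of 24 mice, by genotype and sex (F, female, and M, male). Points are mice, long bars are means and whiskers are SDs over 6 mice. For each gene the WT females are the group that stands apart, high for Bag4, Hsp90b1 and Hspa5 and low for Dnaja3.

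Among the folding machinery of the ER, Hsp90b1 (Grp94) and Hspa5 (BiP), the main ER members of the Hsp90 and Hsp70 families and both carriers of the ER motif shown above, had lower values in Vps39+/- females. Hsp90b1 had a lowest, median and highest value of 9.69, 10.0 and 10.6 in WT females and 9.63, 9.75 and 9.78 in Vps39+/- females. The WT female values were spread widely and the Vps39+/- values narrowly, and the ranges overlapped. The difference was -0.32 ± 0.11 (adjusted p = 0.503), and without the 4 liver-rich arrays it was -0.14, with an unadjusted p no longer under 0.05. The 2 highest values of Hsp90b1, 10.6 and 10.3, were those of WT female 2 and WT female 6, the muscles with the highest liver means. The part of this signal in the difference was not tested beyond leaving those arrays out. Hspa5 had values of 10.5, 10.7 and 10.8 in WT females and 10.4, 10.5 and 10.6 in Vps39+/- females, a difference of -0.20 ± 0.07 (adjusted p = 0.503), and -0.15 without those arrays, again with an unadjusted p no longer under 0.05. Of 24 other ER folding and unfolded protein response genes, 17 lay below 0 in females, 13 without those arrays, and none was called. They included Hyou1, an ER Hsp110 relative (-0.30), the disulphide isomerase P4hb (-0.37) and Herpud1 (-0.20), each with an unadjusted p under 0.05.

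Among the mitochondrial members in females, 8 of 10 lay above 0, with 3 higher at an unadjusted p under 0.05. The median of all probe sets was also above 0, at 0.02. Of all probe sets at that unadjusted p, 64.4% were higher, against 42.9% under cyclic loess. The mitochondrial count under other scalings is not given. Dnaja3 (Tid1), the J protein of the mitochondrial matrix, had a lowest, median and highest value of 7.91, 8.12 and 8.32 in WT females and 8.25, 8.44 and 8.56 in Vps39+/- females. All 6 Vps39+/- females were above the WT female mean, with overlap between 8.25 and 8.32. The difference was 0.30 ± 0.09, a fold of 1.23 (adjusted p = 0.465), and it was 0.30 without the liver-rich arrays. Dnajc15, a J protein of the mitochondrial import motor, differed by 0.18 ± 0.08 and Dnajc4 by 0.16 ± 0.07. Hspa9, the mitochondrial Hsp70, was at -0.02, and Hspd1 and Hspe1 were at 0.08 and 0.06. Dnajb4, a cytosolic partner of Hsp70, differed by -0.26 ± 0.12, and Bag2, which restrains the ubiquitin ligase CHIP, by 0.23 ± 0.11. None of these passed the adjusted threshold.

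In males 0 of 77 genes were called, as were 0% of all probe sets, and 4 of 77 reached an unadjusted p under 0.05 against 7.00% of all probe sets (2 higher, background 3.19%, and 2 lower, background 3.82%). With arrays shifted to the same median the split was 0 higher and 4 lower. Hspa2, the Hsp70 needed for sperm formation in mice, ranged from 5.38 to 5.95 in WT and from 4.88 to 5.51 in Vps39+/- males, a difference of -0.38 ± 0.14 (adjusted p = 0.637). Bag1, which couples Hsp70 to the proteasome, ranged from 9.38 to 9.57 and from 9.24 to 9.41, a difference of -0.14 ± 0.06 (adjusted p = 0.684). Hspa1a, the stress-inducible Hsp70 whose promoter is shown above, ranged from 6.33 to 6.69 in WT and from 6.53 to 6.87 in Vps39+/- males (0.18 ± 0.08, adjusted p = 0.695). All 4 ranges overlapped between genotypes. Of the 12 Dnajb genes 2 lay above 0 in males, and of the 28 Dnajc genes 10 did, against 49.5% of all probe sets. Without the liver-rich arrays the Dnajb count above 0 was 5.

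**Figure D2:**
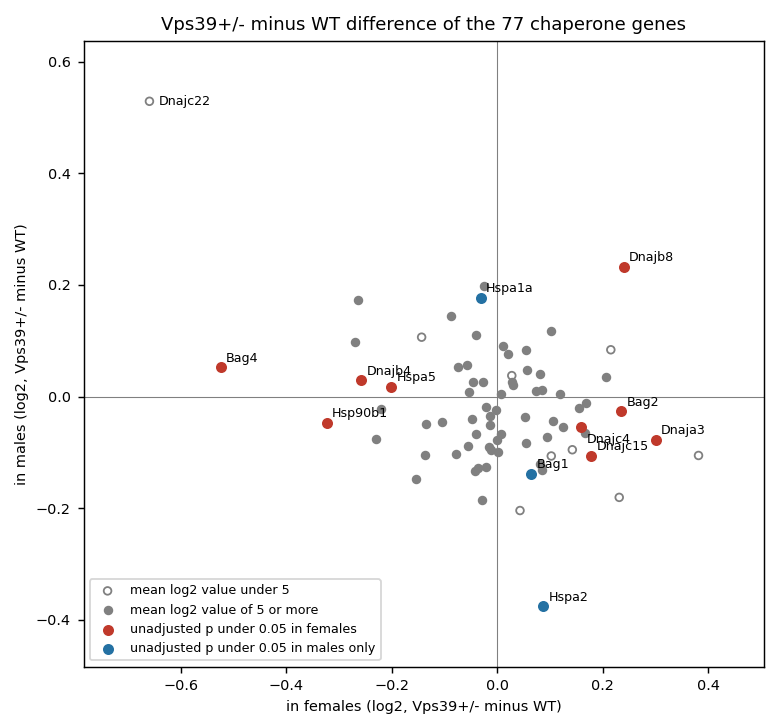
Log2 difference Vps39+/- minus WT in females (horizontal axis) against that in males (vertical axis) for the 77 chaperone genes. Filled points have a mean log2 value of 5 or more, red points an unadjusted limma p under 0.05 in females and blue points in males only. Bag4 lies far left near 0 on the male axis, Dnajb8 is the only red gene high in both, and the dim gene Dnajc22 lies apart at -0.66 and 0.53.

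The genotype effects in females and males had the same sign for 38 of 77 genes (49.4%), and for 50.3% of all probe sets. Only Dnajb8 had an unadjusted p under 0.05 in both, which is 11.1% of the female and 25% of the male genes. The test of the difference itself called 0 of 77 genes and 0% of all probe sets. At an unadjusted p under 0.05 it gave 9 of 77, against 7.79% of all probe sets. Beside Bag4 these were Dnaja3 (-0.38 ± 0.13, male minus female effect), Dnajc15 (-0.28 ± 0.12), Bag1 (-0.20 ± 0.09), Hspa2 (-0.46 ± 0.20), Dnajb6 (-0.20 ± 0.09), Dnajc4 (-0.21 ± 0.10), Hspa5 (0.22 ± 0.10) and Hspb7 (0.44 ± 0.21), with adjusted p from 0.632 to 0.637.

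Several chaperones differed between males and females. Over both genotypes 10 of 77 genes (13%) had an adjusted p under 0.05, against 3.38% of all probe sets. Of these, 6 were higher in males (background 1.98%) and 4 lower (background 1.39%). The 6 that were higher were the J proteins Dnajc7, Dnajc25, Dnajc4, Dnajb6 and Dnajc27 and the Hsp70 Hspa2. The 4 that were lower in males were Hspb6, Hspa1l, Hsp90aa1 and Dnajb4. At an unadjusted p under 0.05 the counts were 23 of 77 (29.9%), 12 higher and 11 lower, against 15.6% of all probe sets (8.53% higher and 7.12% lower). Without the 4 liver-rich arrays 7 of 77 were called, 3 higher and 4 lower. Among the lower genes Hsp90aa1 was then no longer called (limma adjusted p = 0.135), while Hspb7 was (-0.45, adjusted p = 0.0426). Over all probe sets the called count for sex ranged from 447 to 855 over the alternatives, against 661. It is not given for the fit without the liver-rich arrays, so the fall from 10 to 7 cannot be read as particular to the chaperones.

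Hspb6 (Hsp20), a small heat shock protein of muscle, had the smallest p. It lies at chr7:30552535-30555443. Its lowest, median and highest values were 12.71, 12.82 and 12.94 in females and 12.47, 12.60 and 12.75 in males. All 12 males were below the female mean, and the ranges overlapped only between 12.71 and 12.75. The difference was -0.22 ± 0.04 SE, a fold of 0.858 (limma adjusted p = 0.00424), and it was -0.22 in WT and -0.22 in Vps39+/- mice. Its relative Hspb7, which binds filamin in the sarcomere, was 12.51 ± 0.33 (SD, n = 12) in females and 12.15 ± 0.21 in males. The difference of -0.36 ± 0.10 missed the threshold (limma adjusted p = 0.0564). It passed in 7 of 35 alternatives, among them cyclic loess (adjusted p = 0.0259) and the fit without the 4 liver-rich arrays (0.0426). The other small heat shock genes differed by -0.19 to 0.15, and Cryab, the alpha-crystallin of muscle, by -0.24 ± 0.09 (adjusted p = 0.132).

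Hspa1l, a testis-enriched Hsp70 that lies at chr17:34972703-34979228 beside Hspa1a and Hspa1b, had values of 6.67, 7.04 and 7.81 in females and 6.397, 6.72 and 6.85 in males. The female values reached far above the males, led by WT female 3 at 7.81 and WT female 1 at 7.63, and the lowest females, of the Vps39+/- group, lay within the male range. The difference was -0.43 ± 0.10 (adjusted p = 0.0106), while its neighbours differed by -0.03 (Hspa1a) and -0.06 (Hspa1b). With the title number (the number before the point in a sample's title, whose meaning is not stated) as a block, the call was lost (-0.38, adjusted p = 0.0572). Hsp90aa1, the stress-inducible cytosolic Hsp90, had values of 8.25, 8.47 and 8.89 in females and 7.87, 8.24 and 8.44 in males, a difference of -0.32 ± 0.08 (adjusted p = 0.0179) with all 12 males below the female mean. Without the 4 liver-rich arrays it was -0.23 (adjusted p = 0.135), and the call was lost. Dnajb4 had values of 8.71, 9.11 and 9.42 in females and 8.44, 8.76 and 9.18 in males (-0.35 ± 0.09, adjusted p = 0.0202), and its call was also lost with that block (-0.31, adjusted p = 0.0871).

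Among the genes higher in males, Dnajc7 (Tpr2), which binds both Hsp70 and Hsp90, had values of 8.14, 8.36 and 8.56 in females and 8.45, 8.59 and 8.80 in males. All 12 males were above the female mean, and the difference was 0.26 ± 0.05 (adjusted p = 0.00541). Dnajc25, a membrane-bound J protein, had values of 6.87, 7.08 and 7.38 in females and 7.08, 7.48 and 7.55 in males. It was above the female mean in 11 of 12 males, with a difference of 0.31 ± 0.07 (adjusted p = 0.00626). Dnajc4 had values of 7.49, 7.86 and 8.07 in females and 7.97, 8.11 and 8.17 in males, a difference of 0.24 ± 0.05 (adjusted p = 0.0067). Dnajb6, whose mutation causes a limb-girdle muscular dystrophy in humans, had values of 9.44, 9.65 and 9.72 in females and 9.69, 9.77 and 10.1 in males. Its difference was 0.17 ± 0.04 (adjusted p = 0.027), and the call was lost under cyclic loess (adjusted p = 0.056), with the title number as a block (0.0981), without the 4 liver-rich arrays (0.107) and with the liver mean as a covariate (0.0647). Dnajc27, a Rab-like GTPase with a J domain, differed by 0.26 ± 0.07 (adjusted p = 0.0342) and Hspa2 by 0.37 ± 0.10 (adjusted p = 0.036). Each call was lost in 13 of 24 fits that left out 1 array, and both were lost without the 4 liver-rich arrays, at 0.25 (adjusted p = 0.0953) and 0.32 (adjusted p = 0.163). Hspa2 also read below the dim limit of 5 in some females, down to 4.49 in WT female 5. Hspb6, Dnajc7, Dnajc25 and Dnajc4 kept their calls in all 35 alternatives.

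**Figure D3:**
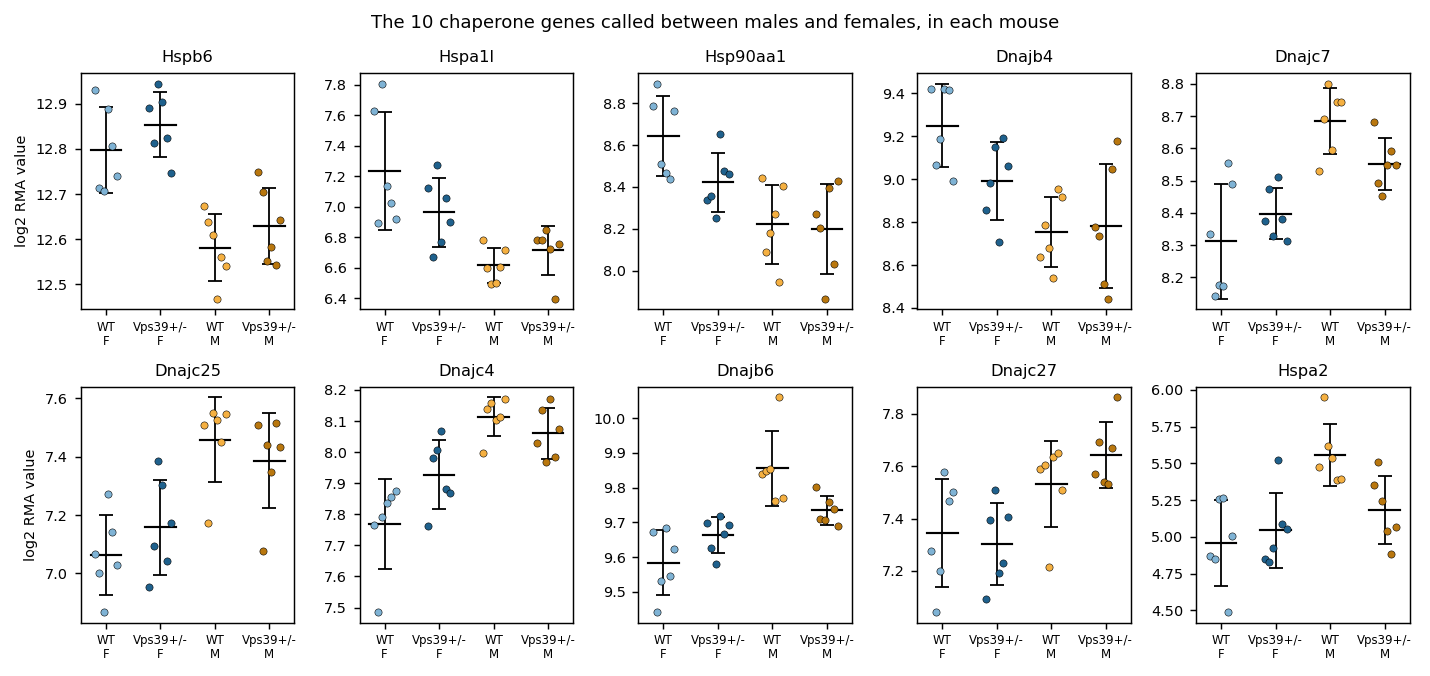
Log2 RMA values (vertical axis, log2 units, scaled separately for each gene) of the 10 chaperone genes called between males and females, in each of 24 mice by genotype and sex. Points are mice, long bars are means and whiskers are SDs over 6 mice. Both male groups lie below both female groups for Hspb6, Hspa1l, Hsp90aa1 and Dnajb4 by their means, and above them for the other 6 genes.

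All 3 Hsp110 genes lay below 0 for male minus female, with Hsph1, the inducible Hsp105, at -0.24 ± 0.08 (adjusted p = 0.0832), Hspa4l at -0.21 and Hspa4 at -0.05. Both Hsp90 genes lay below 0, and so did 5 of the 7 small heat shock genes and 7 of the 10 Hsp70 genes. Of the 28 Dnajc genes 19 lay above 0, with 4 called, all higher in males. These counts stood beside 51.8% of all probe sets above 0. Under cyclic loess scaling the Dnajc count above 0 was 17, and without the liver-rich arrays it was 18.

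Of 14 genes listed as targets of the heat shock factor Hsf1 among the chaperones, 11 were measured, and 10 of the 11 lay below 0 in males, with Hsp90aa1 and Dnajb4 called and Dnajb1 alone above 0 at 0.06. The median was -0.06, against 0.01 over all probe sets, and the count was also 10 under both other scalings and without the liver-rich arrays. Most of these differences were small: Bag3, which with Hspb8 clears damaged filamin, was at -0.06, Hspb1 at -0.06 and Hspd1 at -0.11. The target list was chosen with earlier results of these data known. It does not hold Dnajb6 and Dnajc27, whose promoters carry the heat shock motifs shown above and which were called higher in males. Members with a heat shock motif therefore went both ways. Outside the set, 19 of 24 measured co-chaperones of Hsp90 and Hsp70 lay below 0. Ppid, the cyclophilin 40 of the Hsp90 complex, was the only one called (-0.30 ± 0.05, adjusted p = 0.00181), and Ahsa2, Fkbp4 and Stip1 were at -0.21, -0.14 and -0.14. Of 24 ER folding genes 20 lay below 0. Xbp1, the transcription factor of the unfolded protein response, was lower in males (-0.39 ± 0.08, adjusted p = 0.00578), as was Selenos (-0.36 ± 0.08), while Herpud1 was higher (0.24 ± 0.05). Hspa5 was at -0.14 ± 0.05 (adjusted p = 0.125).

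Clock and cold-inducible genes also differed by sex in these muscles. Of 16 measured clock genes 10 were higher and 4 lower in males past the adjusted threshold. Per2 was at most 6.01 in every female and at least 6.497 in every male (difference 1.18 ± 0.09), and Ciart and Bhlhe41 were higher by 2.01 and 0.99. Arntl, which peaks in opposite phase to Per2, was at least 7.41 in every female and at most 7.10 in every male (-1.15 ± 0.11). Rbm3, an RNA-binding protein induced by cooling, was at most 9.31 in females and at least 9.55 in males (adjusted p = 6.7e-08), and Cirbp was higher by 0.44 ± 0.10 (adjusted p = 0.0097). Genes of slow fibres and macrophages also lay lower in males. All 5 slow-fibre genes were below 0, with the slow myosin light chain Myl2 called (-1.78 ± 0.33, adjusted p = 0.00211), and the mean of the list ranged from 6.23 to 8.03 in WT females, 6.47 to 7.21 in Vps39+/- females, 6.09 to 6.84 in WT males and 5.75 to 7.06 in Vps39+/- males. All 4 measured macrophage genes were below 0, with C1qa called (-0.42 ± 0.12, adjusted p = 0.0427), and their mean ranged from 5.34 to 6.37 and 5.48 to 5.86 in the female groups and from 4.80 to 5.52 and 5.12 to 5.79 in the male groups, WT given before Vps39+/-. The part of the clock, cold-inducible, slow-fibre and macrophage genes in the sex differences of the chaperones was not tested. The running number in the sample titles, whose meaning is not stated, goes from 1 to 12 in females and from 13 to 24 in males, and within each sex the Vps39+/- mice come before the WT mice. Sex, and genotype within each sex, therefore cannot be told apart from an order of handling.

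**Figure D4:**
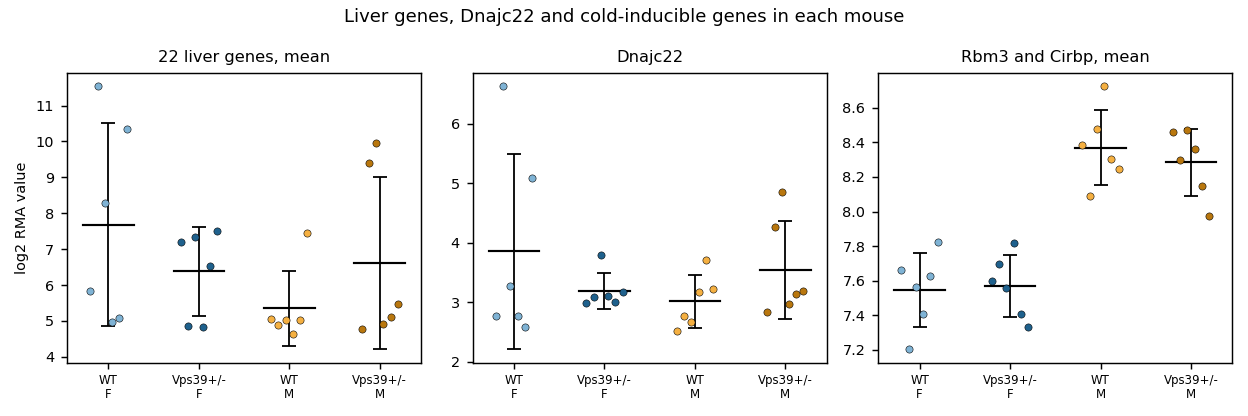
Mean log2 RMA value of 22 liver genes, value of Dnajc22, and mean of the cold-inducible genes Rbm3 and Cirbp (vertical axes, log2 units) in each of 24 mice by genotype and sex. Points are mice, long bars are means and whiskers are SDs over 6 mice. The liver genes and Dnajc22 are high in the same 4 muscles, 2 of them WT female and 2 Vps39+/- male, while the cold-inducible mean is at most 7.82 in females and at least 7.97 in males.

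Within WT mice the sex difference was found for 8 of 77 genes (10.4%), against 1.32% of all probe sets. Of these, 5 were higher in males (background 0.858%) and 3 lower (background 0.465%). They were Dnajc7 (0.37 ± 0.08, adjusted p = 0.0119), Dnajc4 (0.35 ± 0.07, adjusted p = 0.0119), Dnajb6 (0.27 ± 0.06), Hspa2 (0.60 ± 0.14) and Dnajc25 (0.40 ± 0.09), and, lower, Hspa1l (-0.62 ± 0.14), Dnajb4 (-0.50 ± 0.12) and Hspb7 (-0.58 ± 0.15, adjusted p = 0.0472). The WT groups did not overlap for 8 of the 77 genes, against 1.65% of all probe sets. These were Dnajc4, Hspa1l, Dnajb6, Hspa2, Dnajb4 and Hspb7, which is 6 of the 8 called (71% of all called probe sets did not overlap), and Hspb6 and Dnajb2, which were not called. For Hspb7 the lowest WT female was 12.39 and the highest WT male 12.21, but its call was lost in 25 of 37 alternatives. At an unadjusted p under 0.05 there were 19 of 77 (24.7%), 8 higher and 11 lower, against 14.2% of all probe sets (8.21% higher and 6.04% lower). The number called was sensitive to single mice and settings. It was 0 with the title number as a block, by the methods' t-test and when only the WT mice were fitted, and 1 with the liver mean as a covariate. It was 3 without WT female 1 or WT male 3, 4 without WT female 2, 5 without WT male 2, 4 or 5 in turn, and 3 without the 4 liver-rich arrays. Over all probe sets the called count ranged from 92 to 396 over the alternatives, against 259, and is not given for each of these fits. The falls therefore cannot be read as particular to the chaperones.

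Within Vps39+/- mice 0 of 77 genes were called, against 0.766% of all probe sets, and 9 reached an unadjusted p under 0.05 (11.7%, background 11.1%). Of these, 3 were higher in males (background 5.08%) and 6 lower (background 6.03%). Hspb6 had the smallest p (-0.22 ± 0.06, adjusted p = 0.106), followed by Dnajc27, the 1 gene of 77 whose groups did not overlap (1.76% of all probe sets), from 7.09 to 7.51 in Vps39+/- females and from 7.53 to 7.86 in Vps39+/- males (0.34 ± 0.10, adjusted p = 0.128). Dnajc25 was at 0.23, Bag6, which guides membrane proteins to their insertion, at 0.20, Hspa4l at -0.30 and Hsph1 at -0.25. All 8 genes called in WT had the same sign in Vps39+/- mice, and over the whole set 52 of 77 (67.5%) did, against 56.7% of all probe sets. These 2 comparisons share no mouse. Whether the sex effect differs with genotype is the interaction given above, which called no gene.

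**Figure D5:**
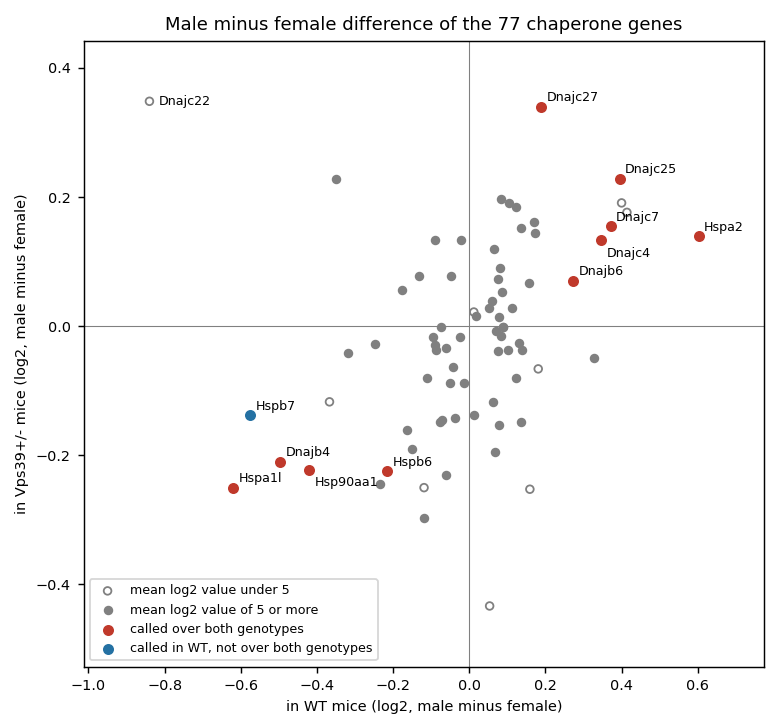
Log2 difference male minus female in WT (horizontal axis) against that in Vps39+/- mice (vertical axis) for the 77 chaperone genes. Filled points have a mean log2 value of 5 or more, red points were called over both genotypes and the blue point, Hspb7, in WT only. The 10 red genes have the same sign on both axes, and the dim gene Dnajc22 lies apart at -0.84 and 0.35.

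The sex difference in WT and the genotype difference in females both use the WT females, so their values cannot be read as separate evidence. Side by side, male minus female in WT and Vps39+/- minus WT in females were -0.35 and -0.52 for Bag4, 0.33 and 0.30 for Dnaja3, -0.32 and -0.32 for Hsp90b1, -0.25 and -0.20 for Hspa5, and -0.50 and -0.26 for Dnajb4. For Bag4, Dnaja3, Hsp90b1 and Hspa5 the mean of the WT females lay apart from those of the other 3 groups, while for Dnajb4 the Vps39+/- females lay between the WT females and the males.

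The stress-inducible Hspa1b showed no co-variation from mouse to mouse that passed the threshold, and pairs without Hspa1b were not tested. After removal of the 4 group means, Hspa1b was compared across 24 mice with 9 genes, and no pair passed Benjamini-Hochberg adjustment over the 9 in a permutation test with 100000 draws. The nearest was Dnajb1, the J protein induced with Hsp70 (Pearson's r = 0.57, p = 0.00861, adjusted p = 0.0775, and Spearman's rho = 0.51, p = 0.015, adjusted p = 0.135). Without the 2 mice farthest from the median of Hspa1b, r was 0.35. Rbm3 gave r = -0.51 (adjusted p = 0.112) and rho = -0.48 (adjusted p = 0.168), and Hspa1a r = 0.40 (adjusted p = 0.143). Hsph1 was at r = -0.20, Bag3 at 0.09, Hsp90aa1 at 0.08 and Cirbp at -0.08. All arrays share the same scaling, which limits what such correlations can show.

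Of the 77 genes, 68 had a mean value of 5 or more and 9 were dim. The dim genes were the testis or germ cell genes Dnajb3, Dnajb7, Dnajb13, Dnajc5b, Dnajc5g and Hspb9, together with Dnajc6, the partner of clathrin uncoating in neurons, Dnajc22 and Hspb11. None of the 9 was called in any comparison. Dnajc22 had the widest spread within groups of the 77 genes, with a pooled SD of 0.958, where the others lay between 0.076 and 0.374. WT female 2 had the highest value (6.63), then WT female 6 (5.10), Vps39+/- male 3 (4.86) and Vps39+/- male 2 (4.26), and the other 20 muscles lay between 2.52 and 3.80. These are the 4 muscles with the highest liver means, in the same order.

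Single muscles also stood apart over many members at once. Vps39+/- male 3 had the lowest value of its group for 32 of 77 genes (41.6%), against 21.4% of all probe sets. WT female 2 was lowest in its group for 26 (33.8%), but also for 29.3% of all probe sets, so its low values were not particular to the chaperones. Vps39+/- female 3 was highest in its group for 24 (31.2%), against 18.3%. The first 2 of these are among the liver-rich muscles, and the third had a liver mean of 7.33.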

How the data were processed

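Whole tibialis anterior muscles were homogenised, and RNA was hybridised to Clariom S mouse arrays, 1 array per mouse. The authors made the deposited log2 values by robust multi-array averaging (RMA) in Expression Console 1.4.1.46 and pooled no mice. For the annotation's genome build, the sources used here give nothing. Of 28846 probe sets, 6640 were controls and 2634 others had no symbol or more than a single symbol in the annotation used, which left 19572. Every column matched 1 sample, leaving 0 unassigned. Array medians were 5.55 to 5.64. Arrays have no read depth, and their number limits the precision.

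Groups followed the labels. Differences were fitted with limma 3.58.1 (R 4.3.3), by genotype over 24 mice or by 4 group means, with empirical Bayes moderation and Benjamini-Hochberg adjustment over all 19572 probe sets. A gene is called at an adjusted p under 0.05, and ± after a difference is its SE. For a symbol with several probe sets the one of highest mean was used. Probe sets with a mean under 5 were treated as dim. All 77 genes matched RefSeq (GRCm38.p6), the source of coordinates and promoters. Full values are given for Bag4 and, per comparison, for up to 6 genes per direction of smallest p. From other lists up to 4 genes were named. The members and lists were chosen with earlier results of these data known. The steps were tested on simulated data. Alternatives covered scaling, dim probe sets, liver transcripts, the title number, the prior, array weights, the methods' t-test and each array left out.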

Additional observations from a re-analysis of the deposited data

Results flagged for a closer look

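In 8 of 104 groups tested (7.69%, over 26 chaperone genes), 1 mouse lay far from the other 5 of its group. Chance gives about 1 in 20 for genes that were not selected. Beside Bag4, these 26 were selected by their p in the comparisons above, so that rate is no strict reference. Bag2 was highest in WT female 4 at 7.158, with the others between 6.693 and 6.857. Dnajb6 was highest in WT male 5 at 10.06, with the others between 9.761 and 9.854. Hsp90b1 was highest in WT male 6 at 9.947 (others 9.632 to 9.72), and Hsph1 in Vps39+/- male 4 at 8.879 (others 8.196 to 8.324). The low values were Dnajc25 in WT male 2 at 7.171 (others 7.452 to 7.548), Dnajc27 in WT male 3 at 7.214 (others 7.508 to 7.649), Dnajc4 in WT female 2 at 7.486 (others 7.766 to 7.875) and Hspa1l in Vps39+/- male 5 at 6.397 (others 6.719 to 6.85). WT female 2 is also the muscle with the highest liver mean.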

How the results depend on the processing

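Leaving out the 4 liver-rich arrays moved the counts at an unadjusted p under 0.05 from 4 to 1 (genotype), 4 to 1 (genotype in males) and 23 to 15 (sex). The called count for sex in WT went from 8 to 3. That fit had 4 mice fewer, and for these comparisons its shares of all probe sets, called or at an unadjusted p under 0.05, are not given. The falls therefore cannot be read as particular to the chaperones. With the liver mean as a covariate, the interaction count went from 9 to 4 and the called count for sex in WT to 1. Under a fixed block on the title number, the unadjusted counts were 2 for genotype and 14 for genotype in females, and sex in WT had 0 called, as it did under the methods' t-test and with only the 2 groups compared. Genotype in males had 8 genes at an unadjusted p under 0.05 by that t-test and 2 with only the 2 groups compared, and genotype in females had 5 after arrays were shifted to the same median. In sex in Vps39+/-, 1 gene (Hspb6) was called under cyclic loess, among probe sets of mean 5 or more and with a trend and robust prior. Over all probe sets, sex in WT had from 92 (the methods' t-test) to 396 (trend and robust prior) called, against 259, and sex in Vps39+/- had 93 without the liver-rich arrays, against 150.

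With each array left out in turn, the unadjusted counts ranged from 2 to 5 (genotype), 6 to 13 (genotype in females), 1 to 5 (genotype in males), 6 to 14 (interaction) and 4 to 12 (sex in Vps39+/-), and the called counts from 8 to 11 (sex) and 3 to 8 (sex in WT). The counts over all probe sets are not given for these fits, so the changes cannot be read as particular to the chaperones. The Bag4 difference in males ranged from -0.006333 (without WT male 6) to 0.1257 (without WT male 5). Without the liver-rich arrays, the correlation of Hspa1b was -0.04969 with Hsp90aa1 and 0.0115 with Cirbp. The cause of these changes was not tested.

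Scaling moved the share of higher calls among all probe sets at an unadjusted p under 0.05. Shifting to the same median changed it from 64.3% to 48.3% (genotype), 45.5% to 24.5% (genotype in males), 40.6% to 29.5% (interaction) and 57.6% to 68.8% (sex in WT). Cyclic loess gave 49.1% for genotype, 42.9% against 64.4% for genotype in females, 56.4% for the interaction and 44.7% for sex in WT. No paired analysis was possible because no label ties 1 mouse of a group to 1 of another. The title number used as a block above is shared by up to 3 mice of a group, and its meaning is not stated. The block also ended the sex calls of Dnajb6, Hspa1l and Dnajb4 over both genotypes.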
